A study of Mus musculus with 48 samples.

Results

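The genes described here encode the subunits of the oxidative phosphorylation (OXPHOS) system that are made from nuclear DNA. They were picked by symbol alone, by the names of the complex I (Nduf), complex II (Sdh), complex III (Uqcr), complex IV (Cox4 to Cox8) and ATP synthase (Atp5) families, with no expression value used. This gave 83 of the 24421 gene entries: 35 of complex I, 4 of complex II, 8 of complex III, 19 of complex IV (Ndufa4, whose product sits in complex IV, was counted there) and 17 of ATP synthase, complex V. The ATP synthase symbols Atp5s and Atp5sl name proteins outside the finished enzyme and are kept because the naming rule takes them. All 83 symbols, or the current names of the same genes, were found in GENCODE.

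In OXPHOS, complexes I and II pass electrons from NADH and succinate through coenzyme Q to complex III and, by cytochrome c, to complex IV, which reduces oxygen. Complexes I, III and IV pump protons across the inner mitochondrial membrane, and ATP synthase lets them flow back to make ATP. Most subunits are nuclear-encoded and imported, while the hydrophobic cores of complexes I, III and IV and part of the ATP synthase membrane sector are encoded by mitochondrial DNA. Brain astrocytes use both glycolysis and OXPHOS, and several complex IV subunits exist as forms that differ between tissues.

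RNA sequencing was done on fluorescence-sorted cells of mouse brain, in 48 libraries that form 16 groups of 3. From Aldh1l1-GFP mice, whose astrocytes are marked through the Aldh1l1 promoter, came GFP sorts and mCh sorts (labelled as neurons) of olfactory bulb (OB), cortex (CX) and hippocampus (HP), each under the treatments Gq-Saline and Gq-CNO, which makes 36 libraries. As background, Gq is a common short name for a Gq-coupled designer receptor and CNO (clozapine-N-oxide) for its ligand, and the receptor's vector and promoter are not stated in the labels. GFP sorts of olfactory bulb also came from Aldh1l1-GFP mice that were untreated or labelled CNO-control. The remaining 6 libraries were mCh sorts (labelled as astrocytes) of olfactory bulb from mice with the floxed genotype Slc22a3-FF, given Gfap-mCh (flox control) or Gfap-Cre (labelled Slc22a3-cKO). Ages, and whether animals were pooled, are not given in the labels, so p-values measure the spread between libraries, which may be partly technical.

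Libraries held 228048 to 24664376 reads, recovered from the deposited values, and levels are given per 1000000 of these reads (RPM). The marker lists bore out the GFP label and not the neuron label. In the 18 Gq GFP sorts the astrocyte marker list had a median of 1218 to 2426 RPM, against 165 to 1022 RPM in the 18 Gq mCh sorts. In the mCh sorts the median of the neuron list was 40.8 to 189 RPM, below that of the microglia list (389 to 1237 RPM) and the oligodendrocyte list (309 to 788 RPM), so they are called mCh sorts here. In the mCh sorts labelled as astrocytes the astrocyte list had a median of 327 to 605 RPM and the microglia list 253 to 434 RPM in flox controls, against 72.4 to 158 RPM and 435 to 1099 RPM with the cKO label. Slc22a3, the gene targeted in the floxed mice, had 0 reads in each flox control library and 0, 0 and 12 reads in the libraries labelled cKO, so it does not check those labels. In these bulk libraries, fewer cells of a type and less RNA per cell cannot be told apart.

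Reads fell on 68 of the 83 genes in all 48 libraries, and each library had reads on 73 to 80 of them. Cox8c had no read in any library. Ndufs5 had 4 reads in all 48 libraries together, and reads shared with copies of a gene can be lost in counting, so that value is uncertain. Per length, the highest genes of their complexes over the 48 libraries were Ndufb9 (complex I, 182 RPKM, that is RPM per kilobase of exon), Sdha (complex II, 69.9 RPKM), Uqcr10 (complex III, 143 RPKM), Cox6a1 (complex IV, 478 RPKM) and Atp5b (complex V, 140 RPKM). At the other end stood Ndufs5 (0.0166 RPKM), Sdhb (32.1 RPKM), Uqcrc1 (14.2 RPKM), Cox8c at 0 and Atp5sl (1.80 RPKM). The length used was the union of the exons of all transcripts of a gene. With another measure of length the order of genes within a complex can change.

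Among the complex IV isoforms the ubiquitous forms led in both sorts. Cox4i1, which starts the folding of complex IV around its core, had a mean of 120 ± 28.8 RPKM (SD, n = 18) in Gq GFP sorts and 123 ± 34.7 RPKM (SD, n = 18) in Gq mCh sorts, while its hypoxia-linked lung form Cox4i2 had 84 reads in all 48 libraries. The general form Cox6b1 had 126 ± 26.9 and 126 ± 40.6 RPKM in the same 2 sets, and its testis form Cox6b2 had 2.24 ± 2.38 and 0.318 ± 0.731 RPKM. Cox7a2 had 109 ± 41.1 RPKM in GFP and 80.6 ± 31.7 RPKM in mCh sorts, against 6.06 ± 9.24 and 1.88 ± 5.77 RPKM for Cox7a1, its heart and muscle form. Cox8a had 361 ± 72.8 and 577 ± 207 RPKM, and its muscle form Cox8b 3.20 ± 6.81 and 0.0629 ± 0.267 RPKM. Among the genes for the c subunit of the ATP synthase rotor, which encode the same mature protein, Atp5g3 was highest per length in both sorts, with 88.7 ± 18.0 RPKM in GFP and 38.8 ± 17.3 RPKM in mCh sorts. Atp5g2 had 28.6 ± 8.76 and 30.0 ± 10.6 RPKM and Atp5g1 12.3 ± 7.64 and 7.76 ± 4.64 RPKM.

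Promoters of 69 of the 83 genes were in the RefSeq table of mouse promoters (build GRCm38.p6, 250 bases before to 50 after the start). NRF1, the ETS factor GABP and YY1 are known to drive many nuclear genes for mitochondrial proteins. Searched on both strands, the palindromic 10-letter NRF1 motif, in capitals in the Cox6a1 line below, was in 5 of the 69 promoters (7.25%) and in 1.07% of the 27025 genes of the table. CCGGAAG (ETS, GABP) was in 16 of 69, against 9.93% of all genes, and AAGATGGC (YY1) in 11 of 69 (15.9%, against 3.19%). At least 1 of the 3 was in 29 of 69, against 13.4% of all genes. The last 3 letters of the ETS motif can be the first 3 of the YY1 motif. These counts describe letters and not binding. The windows of 5 genes that the comparisons turn on are printed 5′ to 3′, up to the first annotated exon base, with motif matches in capitals. Cox6a1 and Cox7a2l were higher in mCh sorts of all 3 regions, Ndufc2 and Atp5g3 higher in GFP sorts of all 3, and Atp5e had the largest fall in the CNO-control libraries.
Cox6a1, chr5:115348982-115349208, minus strand: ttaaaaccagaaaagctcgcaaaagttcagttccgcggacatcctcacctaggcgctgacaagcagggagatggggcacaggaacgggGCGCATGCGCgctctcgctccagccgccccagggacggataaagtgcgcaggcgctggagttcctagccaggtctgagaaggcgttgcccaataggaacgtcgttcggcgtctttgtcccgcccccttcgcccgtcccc
Cox7a2l, chr17:83514334-83514583, minus strand: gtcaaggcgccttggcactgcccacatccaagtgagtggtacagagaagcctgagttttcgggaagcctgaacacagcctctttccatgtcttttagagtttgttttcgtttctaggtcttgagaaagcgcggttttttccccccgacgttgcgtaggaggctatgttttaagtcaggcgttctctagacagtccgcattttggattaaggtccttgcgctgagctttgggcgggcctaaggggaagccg
Ndufc2, chr7:97399753-97400002, plus strand: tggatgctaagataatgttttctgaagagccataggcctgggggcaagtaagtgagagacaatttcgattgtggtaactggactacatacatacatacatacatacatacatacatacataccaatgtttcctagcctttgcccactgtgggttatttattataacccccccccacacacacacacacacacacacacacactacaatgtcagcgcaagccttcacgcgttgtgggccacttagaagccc
Atp5g3, chr2:73911327-73911576, minus strand: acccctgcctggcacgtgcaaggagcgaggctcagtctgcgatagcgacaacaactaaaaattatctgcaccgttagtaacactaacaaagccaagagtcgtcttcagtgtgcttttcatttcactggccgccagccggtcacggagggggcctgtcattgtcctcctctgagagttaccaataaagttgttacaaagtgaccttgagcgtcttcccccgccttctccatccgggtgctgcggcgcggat
Atp5e, chr2:174464106-174464351, minus strand: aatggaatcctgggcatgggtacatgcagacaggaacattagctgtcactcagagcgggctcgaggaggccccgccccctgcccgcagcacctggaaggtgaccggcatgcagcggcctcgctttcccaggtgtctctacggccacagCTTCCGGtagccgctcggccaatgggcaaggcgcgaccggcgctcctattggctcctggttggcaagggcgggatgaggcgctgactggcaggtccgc
The NRF1 letters of Cox6a1 began 162 bases before its start, and an ETS match 16 bases before the start lies in the exon part that is not printed. In Atp5e the ETS letters, on the opposite strand, began 102 bases before the start. None of the 3 motifs was found in the windows of Cox7a2l, Ndufc2 and Atp5g3.

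Together the 83 genes took 0.717 to 1.01% of the reads in the 18 Gq GFP sorts, 7169 to 10112 RPM, with a median of 9076 RPM. In the 18 Gq mCh sorts they took 6016 to 8109 RPM (median 6864). The untreated olfactory bulb GFP sorts had 5351, 6564 and 6588 RPM, and the CNO-control sorts 2826, 2888 and 3033 RPM. Lowest were the flox control libraries (1646, 2063 and 2576 RPM) and the libraries labelled cKO (1788, 1826 and 1902 RPM). The CNO-control, flox control and cKO libraries thus lay apart from the other 39 libraries, with no overlap. The deposited columns of these 9 libraries carry names that start alike (DS), and Malat1, a nuclear noncoding RNA, took 1.65 to 5.73% of their reads and 0.0544 to 1.02% of the reads in the other 39.

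The share of complex IV in the reads of the 83 genes differed between sorts without overlap. It was 19.6 to 23.9% (median 21.8%) in the 18 Gq GFP sorts and 27.9 to 42.2% (median 35.0%) in the 18 Gq mCh sorts. In mCh sorts the share ran from 27.9 to 33.5% in olfactory bulb, 32.9 to 41.2% in hippocampus and 35.7 to 42.2% in cortex. ATP synthase genes took 32.6 to 39.8% in GFP and 24.2 to 34.3% in mCh sorts. Complex I genes took 24.2 to 27.4% in GFP and 19.7 to 27.1% in mCh sorts. The CNO-control libraries had the lowest complex IV share of all groups, 13.5, 14.0 and 14.1%, against 20.7, 21.3 and 23.6% in the untreated libraries. The flox control (15.1 to 19.1%) and cKO libraries (16.4 to 19.5%) were also low, though they are mCh sorts. All 9 DS-named libraries (13.5 to 19.5%) lay below the other 39 (19.6 to 42.2%).

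**Figure D1:**
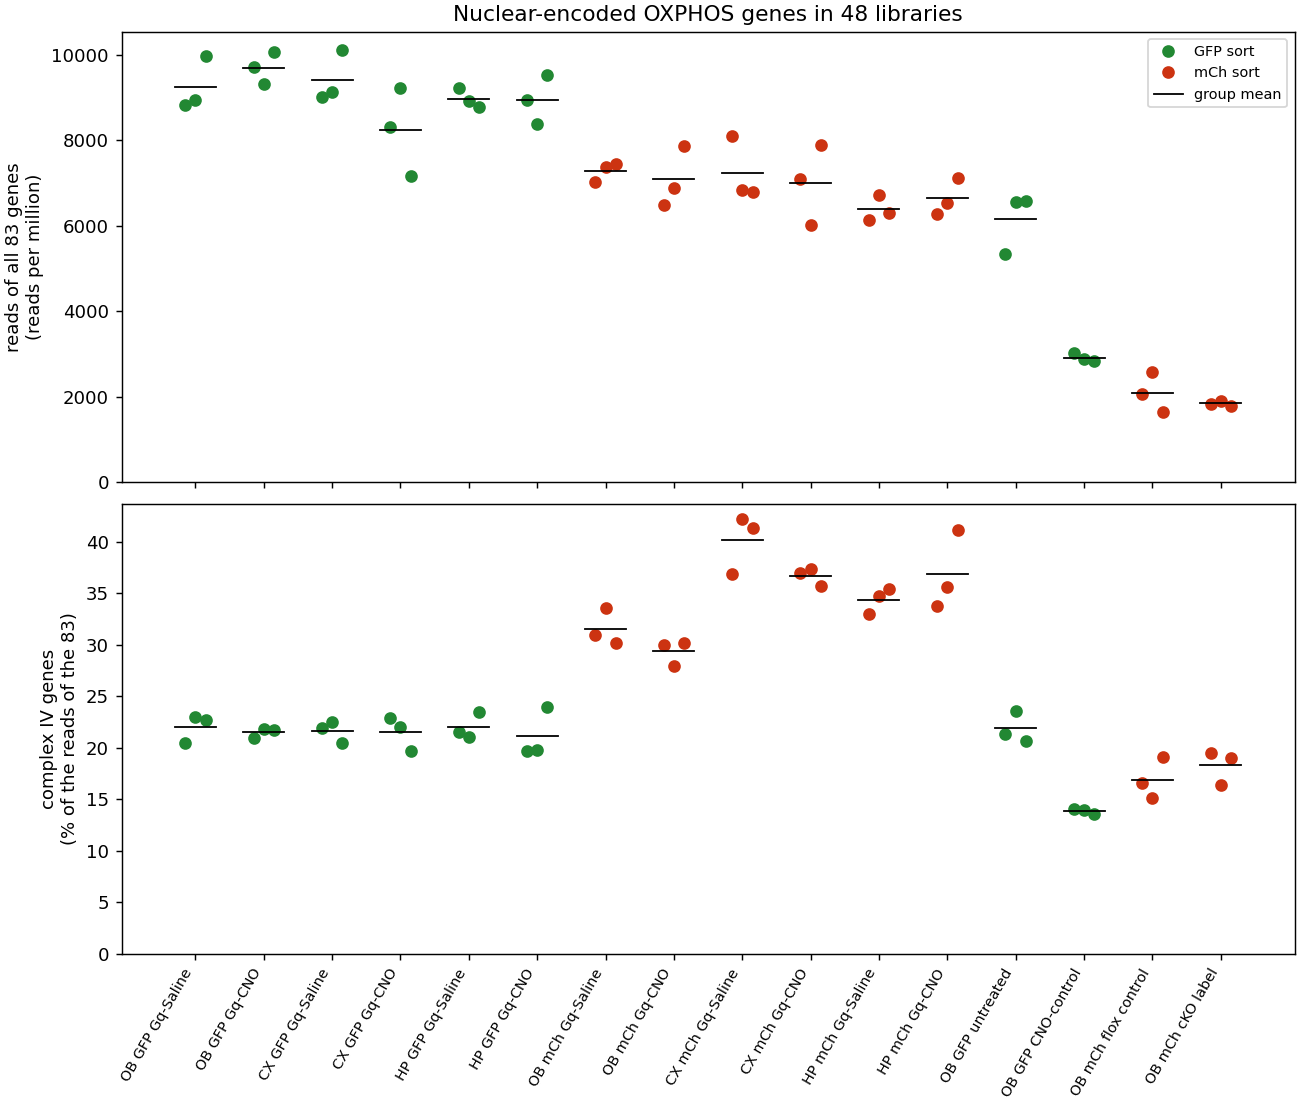
Summed reads of the 83 genes in RPM (top) and the share of them on complex IV genes in percent (bottom), 1 point per library in 16 groups of 3, with the group mean as a line. GFP sorts of Gq mice sit at 7169 to 10112 RPM, the CNO-control sorts at 2826 to 3033 RPM, and the complex IV share of Gq mCh sorts (27.9 to 42.2%) lies above that of Gq GFP sorts (19.6 to 23.9%).

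The first comparison set GFP against mCh sorts within each region, over the 6 libraries of both treatments, in 1 fit of log2(RPM + 1) by limma across 12821 genes. Most OXPHOS genes were higher in the GFP sorts. In olfactory bulb 13 of 78 tested genes were called higher in GFP and 2 higher in mCh (adjusted p under 0.05), in cortex 28 and 5, and in hippocampus 30 and 4. Over all genes, 6.50% were called higher in GFP and 11.5% higher in mCh in olfactory bulb, 14.0% and 20.1% in cortex, and 11.3% and 18.7% in hippocampus (34.1% in both directions in cortex). The median log2 difference of the tested OXPHOS genes was 0.57 in olfactory bulb, 0.69 in cortex and 0.72 in hippocampus, against -0.02, -0.08 and -0.12 over all genes. Of the 78 genes, 54 were higher in GFP and 8 higher in mCh in all 3 regions. The 5 genes not tested (Cox4i2, Cox7b2, Cox8b, Cox8c and Ndufs5) were too low in these libraries. No gene was called in opposite directions in 2 regions. Of the 78, Cox6a2 passed the filter on low values only through mCh sorts, and Cox6b2 and Cox7a1 only through GFP sorts, so their differences are given as a description. These counts hold 1 call of Cox6a2 in cortex, 1 in hippocampus and 1 of Cox6b2 in hippocampus.

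Genes called higher in GFP in all 3 regions were Ndufa13 and Ndufc2 of complex I, Sdhc of complex II, Uqcrc2 of complex III, Cox5a of complex IV, and Atp5a1, Atp5g3 and Atp5l of ATP synthase. They were 8 of the 78 tested, where 4.41% of all genes were called higher in GFP in all 3 regions. Cox6a1 and Cox7a2l were called higher in mCh in all 3, where 8.60% of all genes were. Sdhc, a membrane anchor of succinate dehydrogenase, had 176 to 256 RPM (median 222) in olfactory bulb GFP sorts and 37.6 to 102 RPM (median 80.1) in the mCh sorts. The groups did not overlap there, and the log2 difference was 1.60 ± 0.31 (SE, n = 6 against 6, limma adjusted p = 0.000125). In cortex Sdhc had 76.9 to 246 RPM in GFP and 27.7 to 128 RPM in mCh sorts, which overlapped, with a log2 difference of 1.36 ± 0.31. In hippocampus it had 133 to 250 RPM against 56.8 to 114 RPM, with no overlap and a difference of 1.13 ± 0.31.

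Ndufc2, a small membrane-arm subunit of complex I, had 104 to 166 RPM (median 114) in olfactory bulb GFP sorts and 28.2 to 87.4 RPM (median 43.1) in mCh sorts, again without overlap. Its log2 difference was 1.42 ± 0.34 there, 1.01 ± 0.34 in cortex and 1.48 ± 0.34 in hippocampus. Atp5g3, which encodes the rotor's c subunit, had 189 to 240 RPM in olfactory bulb GFP and 35.3 to 130 RPM in mCh sorts, and 171 to 233 RPM against 56.6 to 98.4 RPM in hippocampus. Both pairs of groups stood apart. In cortex 2 GFP libraries lay within the mCh range of 10.1 to 158 RPM. Its log2 differences were 1.14 ± 0.34, 1.55 ± 0.34 and 1.34 ± 0.34 in olfactory bulb, cortex and hippocampus.

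Cox5a, a matrix-side subunit of complex IV, did not overlap between sorts in any region. It had 125 to 149 RPM in GFP and 41.2 to 80.9 RPM in mCh sorts of olfactory bulb, 114 to 250 against 8.63 to 75.4 RPM in cortex, and 109 to 194 against 37.7 to 83.5 RPM in hippocampus. The log2 differences were 1.12 ± 0.34, 1.79 ± 0.34 and 1.42 ± 0.34. Atp5a1, the alpha subunit of the catalytic head, differed by 0.63 ± 0.20, 0.99 ± 0.20 and 0.95 ± 0.20, with medians of 585, 443 and 500 RPM in GFP and 388, 187 and 254 RPM in mCh sorts.

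By role, the 7 core subunits of complex I that carry its flavin and iron-sulfur clusters were all higher in GFP in every region, and 1, 5 and 5 of them were called in olfactory bulb, cortex and hippocampus. Ndufs1, the largest of them, differed by 1.81 ± 0.31 in hippocampus (106 to 170 RPM in GFP, at most 74.1 RPM in mCh sorts, no overlap). Ndufv2, which holds an iron-sulfur cluster beside the flavin, differed there by 1.80 ± 0.34 (74.4 to 138 against 18.9 to 41.2 RPM, no overlap). Of the 27 tested accessory subunits of complex I, 2, 7 and 4 were called higher in GFP and none higher in mCh. All 4 complex II genes were higher in GFP in each region, with 2, 3 and 2 called. Sdha, the flavoprotein that oxidises succinate, differed by 1.40 ± 0.24 in cortex (335 to 481 RPM in GFP, 94.6 to 268 RPM in mCh sorts, no overlap).

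Of the 8 complex III genes, 1, 4 and 6 were called higher in GFP. Uqcrfs1, the Rieske iron-sulfur protein, differed by 1.82 ± 0.35 in cortex, where its ranges (33.8 to 342 and 18.3 to 92.5 RPM) overlapped. Uqcrb, which binds near the quinone site, had the largest difference of the hippocampal set, 2.08 ± 0.59, from 19.0 to 167 RPM in GFP and 4.04 to 38.9 RPM in mCh sorts, also overlapping. Of the 17 genes named for ATP synthase, 6, 8 and 9 were called higher in GFP and none higher in mCh. Atp5b, the catalytic beta subunit, had 704 to 1077 RPM in hippocampal GFP and 337 to 512 RPM in mCh sorts, with no overlap and a difference of 1.05 ± 0.17. Atp5o, the stalk protein that confers oligomycin sensitivity, differed by 1.52 ± 0.31 in cortex (89.7 to 136 against 13.2 to 64.8 RPM, no overlap). Atp5l, a small membrane subunit, differed by 1.39 ± 0.30 in hippocampus (116 to 222 against 25.5 to 85.3 RPM, no overlap).

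**Figure D2:**
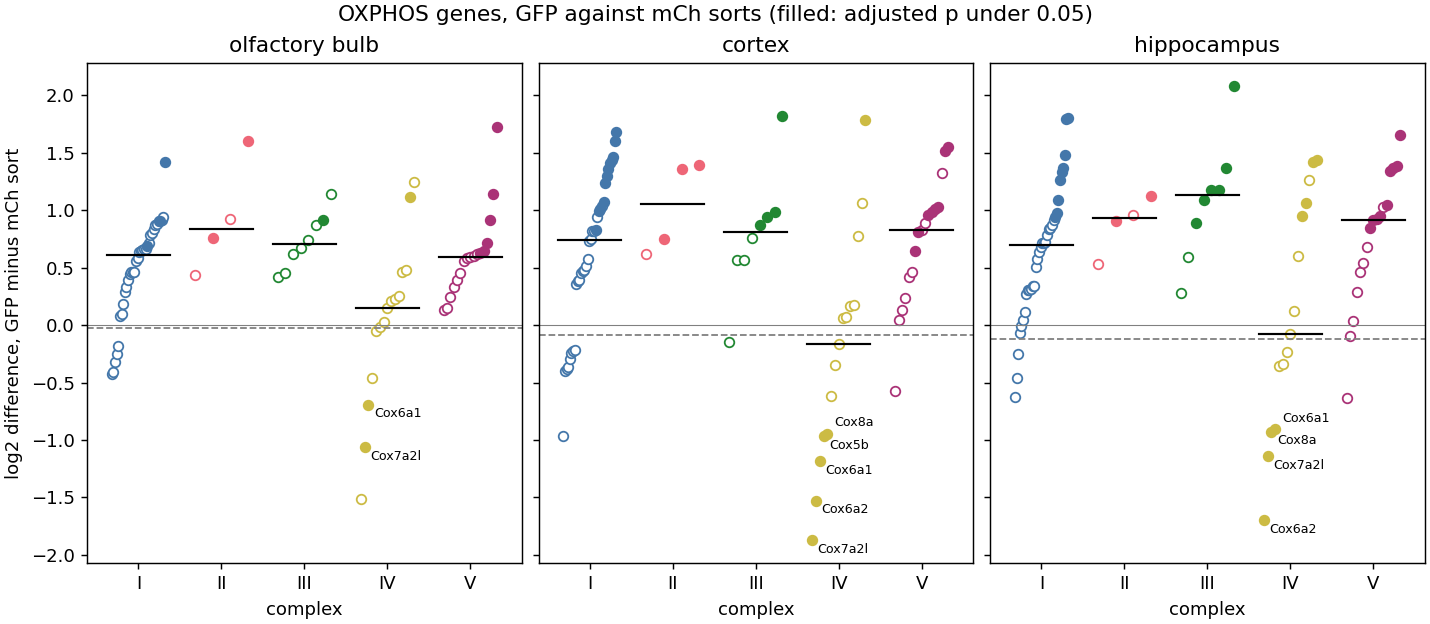
Log2 difference (GFP minus mCh sort, limma) of each tested OXPHOS gene by complex in the 3 regions, with the complex median as a black line and the median of all genes as a dashed line. Filled points have an adjusted p under 0.05. The medians of complexes I, II, III and V lie above 0 in each region, that of complex IV lies at 0.15, -0.17 and -0.08 (0.25, 0.13 and 0.09 with TMM scaling), and each called gene below 0 belongs to complex IV. The complex IV genes include Cox6a2, Cox6b2 and Cox7a1, which passed the filter on low values through a single sort.

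Complex IV genes split between the sorts. The 15 tested had medians of 0.15, -0.17 and -0.08 in olfactory bulb, cortex and hippocampus (0.25, 0.13 and 0.09 with TMM scaling, which turns the sign in the last 2), below those of the other 4 complexes in each region under both scalings, and 1, 1 and 4 of them were called higher in GFP and 2, 5 and 4 higher in mCh. The 15 include Cox6a2, Cox6b2 and Cox7a1, which passed the filter on low values through 1 sort only. Medians without these genes are not given. Cox6a2 made 1 of the mCh calls in cortex and 1 in hippocampus, and Cox6b2 made 1 of the GFP calls in hippocampus. The genes called higher in mCh in any region were Cox5b, Cox6a1, Cox6a2, Cox7a2l and Cox8a, and none came from another complex. Cox6a1, the general form of a nucleotide-binding complex IV subunit, had 264 to 297 RPM (median 276) in olfactory bulb GFP and 348 to 541 RPM (median 452) in mCh sorts. In cortex it had 237 to 372 RPM (median 272) and 474 to 798 RPM (median 669), and neither region showed overlap. In hippocampus the ranges of 219 to 474 and 372 to 854 RPM overlapped. Its log2 differences were -0.69 ± 0.20, -1.18 ± 0.20 and -0.91 ± 0.20 (limma adjusted p = 0.0087, 3.67e-06 and 0.000283).

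Cox7a2l, a scaffold of the supercomplex between complexes III and IV, had 75.6 to 92.9 RPM in olfactory bulb GFP and 101 to 253 RPM in mCh sorts, without overlap. In hippocampus it had 55.1 to 115 against 121 to 281 RPM, also without overlap, and in cortex 9.52 to 81.1 against 70.2 to 288 RPM. The log2 differences were -1.06 ± 0.37, -1.87 ± 0.37 and -1.14 ± 0.37 in olfactory bulb, cortex and hippocampus. The olfactory bulb call did not hold with a pseudocount of 0.1 (limma adjusted p = 0.0539), without the filter on low values (0.0727) or with TMM scaling (0.0763), and the hippocampal call did not hold with the replicate block (-0.86, adjusted p = 0.0690). Cox8a, the smallest complex IV subunit in its general form, had medians of 262 RPM in GFP and 471 RPM in mCh sorts of cortex, and 230 against 374 RPM in hippocampus, where the ranges (166 to 243 and 338 to 622 RPM) did not overlap. Both were called, at -0.94 ± 0.22 and -0.93 ± 0.22, while in olfactory bulb the medians were 229 and 223 RPM. Cox5b, a zinc-binding subunit, was called in cortex (-0.97 ± 0.37, limma adjusted p = 0.0393), but not with edgeR (adjusted p = 0.346), with TMM scaling, with the replicate block, without the filter on low values or with 3 cortical libraries of low depth or high microglia markers left out.

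Cox6a2, the heart and skeletal muscle form of the same subunit as Cox6a1, was at 0 or near it in GFP sorts, with at most 0.115 RPM in any of the 18 Gq libraries. In mCh sorts it had a median of 2.24 RPM in olfactory bulb (highest 12), 2.65 RPM in cortex (highest 7.23) and 2.55 RPM in hippocampus (highest 9.81), and each region had mCh libraries at 0. Its log2(RPM + 1) differences were -1.51 ± 0.61, -1.53 ± 0.61 and -1.70 ± 0.61 in olfactory bulb, cortex and hippocampus. The last 2 are counted as calls above, but the gene entered the test only through the sort in which it was high, so they are given as a description. The cortical one did not pass with the replicate block (limma adjusted p = 0.0650) or without the filter on low values (0.0684).

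**Figure D3:**
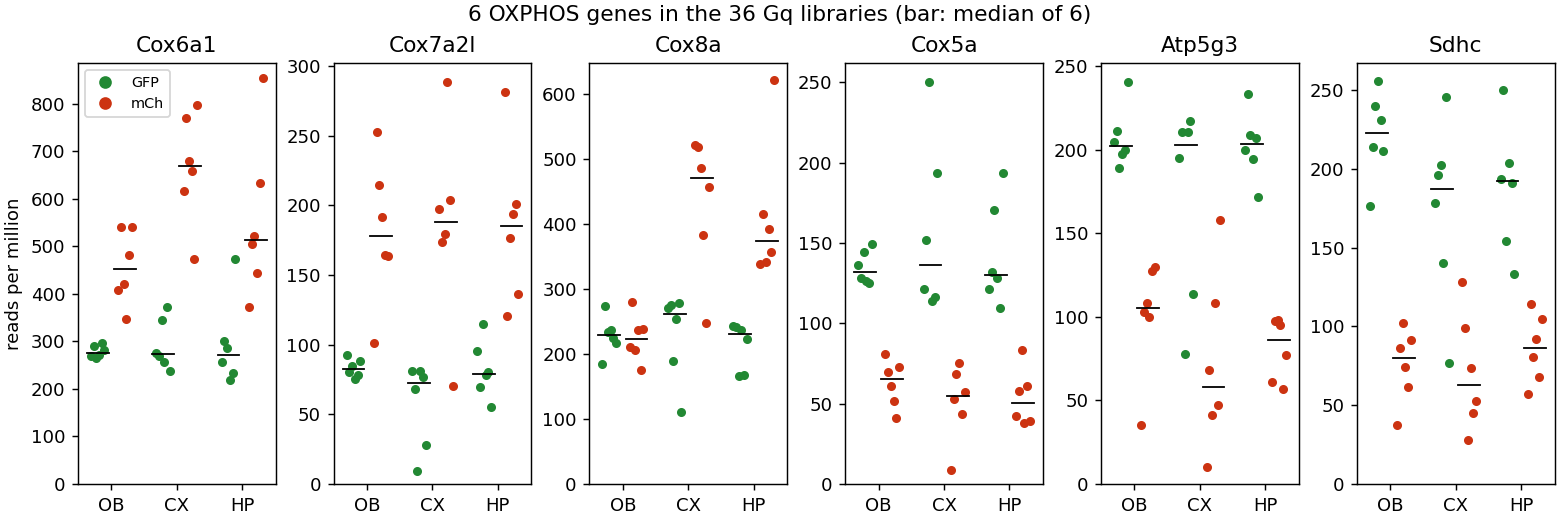
RPM of 6 OXPHOS genes in the 36 Gq libraries, 1 point per library (green GFP sorts, red mCh sorts), with the median of 6 as a bar, in olfactory bulb (OB), cortex (CX) and hippocampus (HP). Cox6a1 and Cox7a2l lie higher in mCh sorts, Cox8a does so in cortex and hippocampus, and Cox5a, Atp5g3 and Sdhc lie higher in GFP sorts.

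Other mitochondrial gene lists differed in how often they were called in the same comparison. All 18 tricarboxylic acid cycle enzymes were higher in GFP in each region, and 10, 14 and 14 were called, with citrate synthase (Cs) at 1.40, 1.87 and 2.04. Of the 74 mitochondrial ribosomal protein genes 3, 15 and 8 were called higher in GFP, with medians of 0.55, 0.83 and 0.61, and 0, 1 and 1 higher in mCh. Of 45 tested assembly factors 1, 7 and 3 were called higher in GFP, such as Lyrm7, a complex III assembly factor, at 3.36 in cortex. Carriers and regulators of the chain split: the ADP/ATP carrier Slc25a4 was higher in GFP (0.74, 1.30 and 1.31) and the uncoupling protein Ucp2 higher in mCh (-2.94, -2.83 and -3.59). Among 15 transcriptional regulators of mitochondrial genes, the coactivator Ppargc1a was called higher in GFP in cortex (1.74) and hippocampus (1.84), and its relative Ppargc1b higher in mCh (-2.14 and -1.92).

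Cytosolic ribosomal protein genes went the other way, with 70, 74 and 73 of 76 called higher in mCh and medians of -1.30, -2.01 and -1.70. Of 24 hypoxia and glycolysis genes 9, 16 and 13 were called higher in GFP, among them Aldoc (2.04, 4.03 and 3.73), which is itself an astrocyte marker, and Ldhb, while the hexokinase Hk2 was higher in mCh in each region (-4.20, -4.18 and -4.66). Cell type markers moved with the sorts. All 12 microglia and all 8 oligodendrocyte markers were called higher in mCh in each region, as were 6, 10 and 9 of 11 neuron markers, and 15, 16 and 16 of 16 astrocyte markers were called higher in GFP. The summed microglia list was 90.4 to 3148 RPM in GFP and 4788 to 15638 RPM in mCh sorts, the oligodendrocyte list 749 to 3209 and 18277 to 60108 RPM, the neuron list 560 to 1607 and 1670 to 4555 RPM, and the astrocyte list 65777 to 145379 and 6153 to 26759 RPM. At most 3 neuron, 2 microglia and 2 oligodendrocyte markers were at 0 in a GFP library. The part of these cell types in the OXPHOS differences was not tested.

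With TMM scaling, the numbers called higher in GFP and in mCh were 19 and 1 in olfactory bulb, 37 and 4 in cortex, and 39 and 4 in hippocampus. That scaling moved the median of all genes in cortex from -0.08 to 0.12, that in hippocampus from -0.12 to 0.0034, and the calls over all genes in cortex from 1793 higher in GFP and 2577 higher in mCh to 2291 and 2103. The olfactory bulb count of 15 fell to between 7 and 13 when any 1 of its 12 libraries was left out.

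The difference between GFP and mCh sorts was then compared between regions by interaction terms of the same fit. None of the 78 OXPHOS genes passed in any of the 3 pairs of regions, where 2.95% (olfactory bulb against cortex), 1.48% (olfactory bulb against hippocampus) and 0.0546% (cortex against hippocampus) of all genes did. At an unadjusted p under 0.05 there were 3, 4 and 6 OXPHOS genes. The SE of these differences had a median of 0.51.

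Between regions within the GFP sorts, no OXPHOS gene was called in any pair, with 5.18% of all genes called between olfactory bulb and cortex, 4.17% between olfactory bulb and hippocampus and 0.374% between cortex and hippocampus. At an unadjusted p under 0.05 there were 7, 3 and 2 OXPHOS genes. Without the filter on low values 1 gene was called in each of the last 2 pairs. edgeR called none of them in the 3 pairs. The genes with the smallest p were Cox4i1 (0.63 higher in olfactory bulb than cortex, limma adjusted p = 0.132), Sdha (0.67 higher in olfactory bulb than hippocampus, adjusted p = 0.121) and Atp5k, a small ATP synthase subunit (-1.33 in cortex against hippocampus, adjusted p = 0.436). For 37, 43 and 44 of the 78 genes the 95% interval of the log2 difference lay within 1 on either side of 0.

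In the mCh sorts, 5 OXPHOS genes were higher in olfactory bulb than cortex and 1 lower, where 7.99% and 2.13% of all genes were called. Among those higher were Atp5o (1.29), Atp5a1 (0.79), Sdha (0.85) and Uqcrfs1 (1.18), the last not called with edgeR (1.07, adjusted p = 0.0647). Sdha had 196 to 346 RPM in olfactory bulb mCh sorts and 94.6 to 268 RPM in cortex, which overlapped. Cox8a was the gene that was lower, at -0.92, with 175 to 279 RPM in olfactory bulb and 248 to 521 RPM in cortex, overlapping. Against hippocampus, Atp5b (0.70) and Ndufs1 (0.99) were higher in olfactory bulb and Cox8a lower (-0.85), where 3.59% and 1.25% of all genes, 4.84% together, were called. Without the third Gq-CNO hippocampal mCh library the number of calls was 1 in place of 3. The Ndufs1 call did not hold with edgeR (adjusted p = 0.138), TMM scaling (0.0751) or a pseudocount of 0.1 (0.0524). Cox8a stood apart here, at 175 to 279 RPM against 338 to 622 RPM. Between cortex and hippocampus limma and edgeR called no OXPHOS gene (8 had an unadjusted limma p under 0.05), against 0.491% of all genes.

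Gq-CNO was compared with Gq-Saline in each sort and region, 3 libraries against 3, on log2(deposited value + 1) with limma. No OXPHOS gene was called in any of the 6 comparisons, and edgeR and DESeq2 called none. The 1 call over all genes was in olfactory bulb GFP sorts (0.00847%), and the other 5 had none (0%). The median log2 differences of the OXPHOS genes were 0.08, -0.07 and 0.03 in GFP sorts and -0.04, -0.12 and -0.05 in mCh sorts of olfactory bulb, cortex and hippocampus. At an unadjusted p under 0.05 there were 2 of 77, 1 of 76 and 2 of 79 in GFP sorts and 1 of 75, 3 of 75 and 1 of 73 in mCh sorts. Values did not overlap between treatments for 6, 10, 9, 4, 8 and 8 OXPHOS genes, against 9.88%, 8.89%, 8.85%, 10.6%, 9.64% and 9.48% of all genes.

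The precision differed between these comparisons. In olfactory bulb GFP sorts the 95% interval lay within 1 of 0 on the log2 scale, a change of at most 2-fold, for 63 of 77 genes. That held for 17 of 76 genes in cortical and 31 of 79 in hippocampal GFP sorts, and for 23 of 75, 5 of 75 and 14 of 73 genes in mCh sorts of olfactory bulb, cortex and hippocampus. In olfactory bulb GFP sorts Sdha had normalised values of 3540, 3553 and 3433 in Gq-Saline libraries and of 4182, 4047 and 4656 in Gq-CNO libraries, which did not overlap, at a difference of 0.29 (limma adjusted p = 0.996). Ndufs1 there had 1377, 1148 and 1495 in Gq-Saline and 982, 875 and 1086 in Gq-CNO libraries, at -0.45. Cox7b, a small complex IV subunit, in olfactory bulb mCh sorts had 428, 324 and 354 in Gq-Saline and 199, 205 and 212 in Gq-CNO libraries, also without overlap, at -0.83 (adjusted p = 0.900).

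The widest differences came from genes that were low or missing in a library. In hippocampal GFP sorts Cox7a1 had values of 47.0, 37.5 and 227 in Gq-Saline libraries, against 10.3, 4.77 and 0 in Gq-CNO libraries, at -4.22 (limma adjusted p = 0.976). In cortical GFP sorts it had 26.9, 29.5 and 33.2, against 0, 10.7 and 0 in Gq-CNO libraries, at -3.76 (adjusted p = 0.910). Both pairs of groups stood apart. Cox7a1 passed the filter on low values only through the Gq-Saline libraries, so these differences are given as a description. It is among the genes counted above at an unadjusted limma p under 0.05, and without overlap, in both regions. In olfactory bulb GFP sorts Cox7a1 was too low to be tested. Ndufs4, an accessory subunit of complex I, was 2.45 higher with CNO in cortical GFP sorts with 1 saline library at 0 (values of 259, 309 and 0 against 294, 279 and 158), and without that library the difference was -0.27. Ndufb3 in cortical mCh sorts had 18.3, 31.4 and 8.29 in Gq-Saline libraries, against 161, 96.2 and 94.4 in Gq-CNO libraries, at 2.67 (adjusted p = 0.967). The first of these Gq-Saline libraries held 695264 reads and the third Gq-CNO library 228048, so their values rest on few reads. Ndufs4 and Ndufb3 met the filter on low values only through the Gq-CNO libraries, so their differences are likewise a description.

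Differences of the CNO effect between regions were tested within each sort, and no OXPHOS gene passed in any of the 6 tests, with limma or with edgeR. Over all genes 2 passed for olfactory bulb against cortex in mCh sorts (0.0156%), 1 for cortex against hippocampus in mCh sorts (0.00780%) and none in the other 4. At an unadjusted p under 0.05 there were 0, 0 and 2 OXPHOS genes in GFP sorts and 3, 0 and 5 in mCh sorts, for olfactory bulb against cortex, olfactory bulb against hippocampus and cortex against hippocampus.

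**Figure D4:**
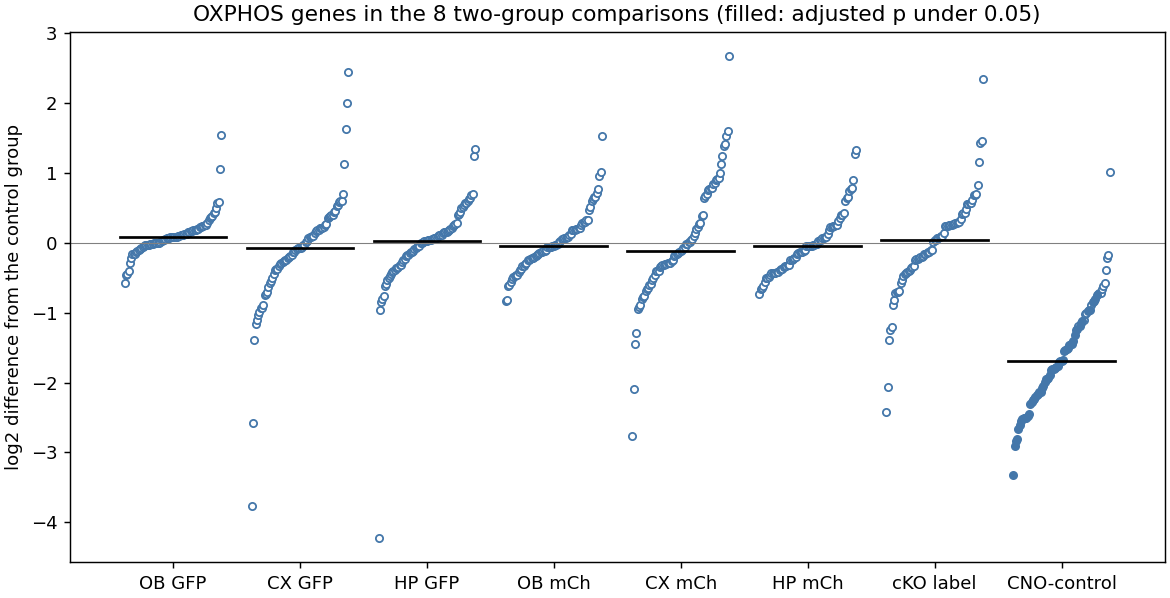
Log2 difference of each tested OXPHOS gene from the control group in the 8 comparisons of 3 against 3 libraries (Gq-CNO against Gq-Saline in 6 sorts, the cKO label against flox control, and CNO-control against untreated), with the median as a line and filled points for an adjusted p under 0.05. The first 7 medians lie between -0.12 and 0.08 with no filled point, and the last lies at -1.69.

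CNO-control libraries were compared with untreated ones in olfactory bulb GFP sorts. Of 75 tested OXPHOS genes 56 fell and none rose (limma, adjusted p under 0.05), where 6.88% of all genes fell and 5.29% rose. Their median log2 difference was -1.69, against 0.11 over all 10940 tested genes, and 74 of the 75 were lower. The 8 genes not tested were Ndufs5 and the 7 tissue-restricted complex IV forms. Values of the groups did not overlap for 66 of the 75, against 32.9% of all genes. With other settings 53 to 62 fell, and 39 to 56 when 1 library was left out.

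All 12 widely expressed complex IV genes fell, by a median of 2.10 on the log2 scale. Cox4i1 had normalised values of 99.1, 74.1 and 93.0 in CNO-control and 583, 731 and 704 in untreated libraries, which stood far apart, and fell by 2.91 ± 0.24 (SE, limma adjusted p = 5.63e-05). Cox7c, the next by p, had 242, 171 and 179 against 877, 1133 and 741, and fell by 2.21 ± 0.23. Ndufa4 had 107, 140 and 106 against 557, 634 and 412, and fell by 2.17 ± 0.26. Cox6a1 (272, 216 and 188 against 518, 780 and 507) fell by 1.40 ± 0.24 and Cox7a2l (73.6, 69.8 and 52.0 against 190, 141 and 162) by 1.32 ± 0.34, both less than most of the complex. Cox8a fell by 1.99 ± 0.24, Cox6b1 by 2.30 ± 0.30 and Cox7a2 by 1.77 ± 0.38.

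In ATP synthase 14 of 17 genes fell. Atp5e, the small epsilon subunit of the central stalk, had 30.1, 21.9 and 26.8 against 265, 289 and 258, with no overlap, and fell by 3.33 ± 0.36, the largest fall of the 75. The peripheral stalk genes Atp5h (148, 155 and 121 against 824, 580 and 552) and Atp5o (179, 162 and 167 against 543, 597 and 654) fell by 2.18 ± 0.24 and 1.81 ± 0.21. The catalytic subunits fell less: Atp5a1 (1219, 1040 and 960 against 1978, 1740 and 1991) by 0.83 ± 0.15 and Atp5b (1154, 1257 and 924 against 1517, 1760 and 2331) by 0.74 ± 0.18, both without overlap. The c subunit genes Atp5g1, Atp5g2 and Atp5g3 fell by 1.77 ± 0.35, 2.28 ± 0.36 and 1.52 ± 0.20. Atp5sl, which is no subunit, was the 1 gene that was higher (1.02 ± 0.79, not called).

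In complex I, 19 of 27 tested accessory subunits and 3 of 7 core subunits fell. The accessory genes ranged from -2.66 (Ndufb2) to -0.57 (Ndufb8), with Ndufa3, Ndufa2 and Ndufa11 at -2.60, -2.56 and -2.51. Ndufs3 and Ndufs7 were among the core genes that fell. Ndufs1 had 403, 371 and 405 in CNO-control and 486, 449 and 403 in untreated libraries, which overlapped, with a difference of -0.18 and a 95% interval of -0.59 to 0.23. Ndufv2 overlapped too (239, 258 and 226 against 178, 380 and 322), at -0.21 (interval -0.84 to 0.41). In complex II, Sdhc and Sdhd fell, while Sdha had 934, 846 and 1037 against 1276, 1113 and 1304, without overlap, at -0.39 (interval -0.73 to -0.06, adjusted p = 0.120). In complex III 6 of 8 fell, with the small subunits Uqcrq, Uqcr10, Uqcrh and Uqcr11 at -2.84, -2.81, -2.52 and -2.48 and the core proteins Uqcrc1 and Uqcrc2 at -1.89 and -0.85. The small subunit Uqcrb (-1.01, limma adjusted p = 0.178) and the Rieske protein Uqcrfs1 (-0.89) were not called.

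The size of the difference followed transcript length. Over the 75 genes, the log2 difference and the log2 of the median protein-coding transcript length had a Pearson r of 0.62 (Spearman rho 0.63), a description over genes that share the same 6 libraries. Over the 10320 tested genes with a length, r was 0.29 (rho 0.27). Of the 48 OXPHOS genes with transcripts of at most 999 bases 42 fell, with a median of -1.95. Among 540 other tested genes of that length, with OXPHOS and cytosolic ribosomal protein genes left out, 17.6% fell and the median was -0.76. At 1000 to 1499 bases 6 of 11 OXPHOS genes fell (median -0.97; other genes -0.37 and 12.8%), at 1500 to 1999 bases 5 of 10 (median -0.90; other genes -0.07 and 6.28%), and at 2000 to 2999 bases 3 of 6 (median -0.77; other genes 0.15 and 4.46%). The median of the OXPHOS genes was lower than that of other genes in each of the 4 length classes. Lengths were not matched within a class, and the part of length in the fall was not tested. In the GFP against mCh comparisons r over 78 genes was 0.21, 0.36 and 0.26 in olfactory bulb, cortex and hippocampus, of the opposite sign to that over all 12025 genes with a length (-0.07, -0.10 and -0.11). In the comparison of the cKO label with flox control it was -0.24 over 75 genes and -0.12 over 12413.

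**Figure D5:**
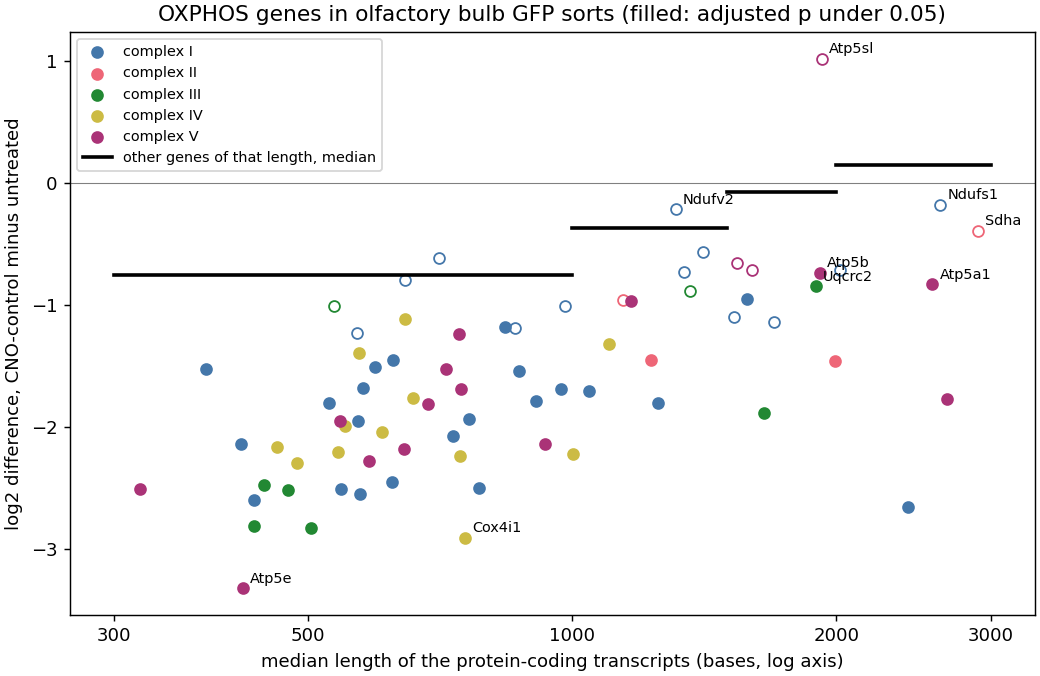
Log2 difference (CNO-control minus untreated, limma) of the 75 tested OXPHOS genes against the median length of their protein-coding transcripts in bases (log axis), coloured by complex, filled for an adjusted p under 0.05. Black lines give the median of other genes of the same length class, -0.76 up to 999 bases and 0.15 at 2000 to 2999 bases, and most OXPHOS genes lie below them.

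Other gene lists ranged from nearly all members lower to none called in the same libraries. Of 76 cytosolic ribosomal protein genes 72 fell, with a median of -1.98 and Rplp1 at -3.23, and their summed level was 2663 to 2813 RPM in CNO-control and 6766 to 8207 RPM in untreated libraries. Of 71 mitochondrial ribosomal protein genes 9 fell (median -0.81), among them Mrpl13 (-2.66). Of the chain's carriers and regulators 6 of 13 fell and 1 rose, and those that fell include Usmg5, a small membrane subunit of ATP synthase that the naming rule leaves out (-2.01), and the phosphate carrier Slc25a3 (-1.20). Of 18 tricarboxylic acid cycle enzymes 8 fell (median -0.64), among them Suclg2 (-0.89). Of 41 assembly factors only Uqcc2, of complex III, passed (-2.05). None of 14 transcriptional regulators passed with limma (Gabpa -0.58, adjusted p = 0.0505; Ppargc1a 0.47, adjusted p = 0.0717).

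Markers moved as well. Of 12 microglia markers 10 fell (median -3.24), with the summed list at 109 to 188 RPM in CNO-control and 599 to 756 RPM in untreated libraries and at most 2 of its markers at 0. Of 16 astrocyte markers 7 fell and 1 rose (median -0.40), among them S100b, a short transcript, at -1.89, with sums of 55198 to 62980 against 66127 to 73572 RPM. Depth was 6619479 to 8577907 reads in CNO-control and 1724893 to 2964862 reads in untreated libraries, and Malat1 took 2.37 to 4.10% of the reads against 0.254 to 0.428%. The part of these in the OXPHOS differences was not tested, and since the DS names mark 1 group and not the other, what sets those columns apart and CNO cannot be told apart.

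Libraries labelled cKO were compared with flox controls in olfactory bulb mCh sorts. None of 75 OXPHOS genes was called (limma), where 2.53% of all 13465 genes were, and 2 had an unadjusted p under 0.05. edgeR called none and DESeq2 called 1, Ndufa2. The median log2 difference was 0.04, against -0.10 over all genes, with 39 genes higher and 36 lower, and the median ran from -0.20 (without the third flox control) to 0.22 when 1 library was left out. Groups did not overlap for 9 of the 75, against 22.7% of all genes. The precision was low, with a 95% interval within 1 of 0 for 4 of 75 genes.

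Ndufa2, an accessory subunit of complex I, had normalised values of 35.3, 388 and 57.5 in the libraries labelled cKO and 16.4, 38.3 and 8.22 in flox controls, which overlapped, at 2.34 (limma adjusted p = 0.259, DESeq2 adjusted p = 0.0312). Ndufa6 had 380, 139 and 128 against 91.0, 52.8 and 70.9, without overlap, at 1.43 (adjusted p = 0.256). Ndufa11 had 7.31, 32.8 and 1.28 against 49.2, 72.3 and 25.7, which overlapped, at -2.42 (adjusted p = 0.302). Ndufa2 met the filter on low values only through the cKO libraries and Ndufa11 only through the flox controls. Their differences are thus given as a description. Atp5b had 1485, 1838 and 1266 against 1769, 2582 and 1062, which overlapped, at -0.16 (adjusted p = 0.858). In the same libraries all 76 cytosolic ribosomal protein genes were higher with the cKO label (median 1.19), and 6 were called. The tricarboxylic acid cycle list had 15 of 18 lower and none called. Beside these, the summed astrocyte list was 2222 to 6932 RPM in the libraries labelled cKO and 7497 to 15321 RPM in flox controls, the microglia list 6381 to 14069 and 4882 to 11224 RPM, and the neuron list 396 to 1103 and 1451 to 4008 RPM, and their part in the OXPHOS values was not tested.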

How the data were processed

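The deposited values are a normalised signal: per the submitters' processing notes the authors checked reads with FastQC 0.11.7 and MultiQC 1.11, aligned them to mm10 with STAR 2.5.0a and normalised them with DESeq2 1.30.1. They lie in 6 tables, each normalised separately. Libraries were made from 10 ng of total RNA, per the labels. Reads were recovered as each value divided by the smallest positive value of its column, which gave whole numbers, within 0.05, for 100% of values. RPM are levels per 1000000 recovered reads, used where libraries of different tables are compared. Intervals cover the spread between libraries.

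Two-group comparisons used limma 3.58.1 (R 4.3.3, mean-variance trend) on log2(value + 1) for genes of at least 10 in at least 3 libraries. Sort, region and interaction contrasts used 1 limma fit of log2(RPM + 1) over 36 Gq libraries in 12 groups, for genes of at least 5 RPM in at least 3 libraries. P-values were Benjamini-Hochberg adjusted over all tested genes, at a threshold of 0.05. edgeR 4.0.16 (quasi-likelihood) and DESeq2 1.42.0 on recovered reads, other pseudocounts, scalings and filters, a replicate block and leaving out libraries were alternatives. The scripts were tested on simulated data. The genes and lists were chosen with earlier results of these data known. Named genes are up to 5 called in each direction by smallest p, or else 2 higher and 2 lower, plus the isoforms and the extremes of each complex; from other lists up to 3. Others named were chosen after their values were seen. Transcript lengths are medians of GENCODE (release 21 for mouse) basic protein-coding transcripts. RPKM used instead the union of the exons of all GENCODE transcripts of a gene. Genes encoded by mitochondrial DNA were not analysed here. 4 columns numbered 4 were placed by group. 27 entries have names turned into dates. Values of some single genes are not reported here.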

Additional observations from a re-analysis of the deposited data

How the results depend on the processing

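Counts of called OXPHOS genes were recomputed under each alternative, and 461 of 478 lay within 1.5 times of the count reported. In most comparisons the count reported was 0, and recounts of 0 are among the 461. The counts that lay outside were few. In the cKO comparison DESeq2 called 1 gene where 0 were called. For GFP against mCh in olfactory bulb, leaving out 1 library gave 7 to 13 of 78 called in place of 15. In the same comparison, leaving out the 3 cortical libraries of low depth or high microglia markers (GFP Gq-Saline and GFP Gq-CNO numbered 4, and mCh Gq-CNO replicate 3; chosen after seeing the data) gave 22, with 38 in cortex and 43 in hippocampus. Without the filter on low values, olfactory bulb against hippocampus and cortex against hippocampus in GFP sorts each had 1 call in place of 0. For olfactory bulb against hippocampus in mCh sorts, leaving out 1 library gave 1 to 4 calls in place of 3 (1 without the third hippocampal Gq-CNO library). The interaction of sort with olfactory bulb against cortex had 0 to 1 call when 1 library was left out (1 without the second cortical Gq-CNO library of either sort), and that with olfactory bulb against hippocampus had 1 without the 3 libraries. Of 280 medians of the OXPHOS genes 13 moved beyond their spread. For GFP against mCh they were 0.97 (edgeR), 0.93 (TMM) and 0.85 (without the 3 libraries) in cortex, and 0.89 (edgeR), 0.89 (TMM) and 0.87 (block) in hippocampus. In GFP sorts, olfactory bulb against cortex gave 0.0013 (edgeR), 0.06 (block) and 0.04 (without the 3 libraries), and cortex against hippocampus 0.03 (without the 3 libraries). The cortical GFP Gq-CNO median was 0.04 with quantile normalization and -0.18 without Gq-Saline number 4, and the cKO median -0.20 without the third flox control. Leaving out the cortical GFP Gq-Saline library numbered 4 reversed Ndufs4 (-0.27) and Ndufv3 (-0.18) in cortical GFP sorts. Over all libraries left out, they ranged up to 3.87 and 2.59. The cause was not tested.

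Same-numbered libraries of 2 groups had deviations correlated at -0.0935 to 0.132, and other pairs at -0.13 to 0.137. Across sorts and regions the medians were 0.0106 and -0.00416, so the numbers were not taken to pair libraries. In hippocampal GFP sorts, however, same-numbered pairs (0.0867 to 0.132) all lay above the others (-0.13 to 0.0829). In cortical GFP sorts the medians were 0.0433 and -0.0425. In both, pairs of number 1 with number 2 were positive too (0.0829 and 0.0529 in hippocampus, 0.0279 and 0.0502 in cortex). Each pair of number 4 with number 1 or 2 was negative (-0.13 to -0.0369). Whether sorts and regions share animals is not given in the labels, and the fit of 36 libraries treated them as independent. With the replicate number as a block, calls were 54 in place of 56 in the CNO-control comparison, 17, 38 and 39 for GFP against mCh in olfactory bulb, cortex and hippocampus, and 8 and 3 for olfactory bulb against cortex and hippocampus in mCh sorts. The depth of the shallowest library, 228048 reads, limits genes of a few RPM.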
